A study of Drosophila melanogaster with 3 samples.

Results

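In the list of fkh binding peaks kept after the reproducibility step, 739 of 8728 intervals (8.47%) were listed at least 2 times, each time with a different summit, the point of highest signal. These multi-summit intervals are described here, beside the 7989 intervals that were listed once. An interval counts as listed once even where it overlaps another with other ends, as 1129 of these and 31 multi-summit intervals did. They were chosen by counting the rows of the deposited list that share chromosome, start and end. They held 1542 of the list's 9531 summits (16.2%). Of the 739 intervals, 683 held 2 summits, 49 held 3, 6 held 4 and 1 held 5.

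fkh (fork head) is the founding member of the forkhead, or Fox, family of transcription factors, whose winged-helix domain binds short DNA words rich in T on one strand. In the fly it is known for its roles in the salivary gland, where it helps to set gland identity and to drive secretion genes, and in the fore- and hindgut. Clusters of sites for one factor are a common feature of enhancers.

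The signal came from ChIP-seq of whole Drosophila melanogaster prepupae, the stage that follows the wandering larva. The line carries fkh joined at its C terminus to GFP, by an insertion that targets fkh according to the labels, and the bound chromatin was pulled down through the GFP. There were 3 biological replicates of this 1 group, with males and females pooled, and no second genotype, treatment or time. The labels add an age in days that is too long for a prepupa, so it was not used. Whole animals mix all cell types, so the cells that bind cannot be told apart. Read depth is unknown, since the lists hold no read counts. All intervals below for shares are exact Clopper-Pearson 95% intervals and cover counting error only.

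The sequence under the strongest and the next strongest summit is shown for 4 of the strongest multi-summit intervals, because it shows directly that the summits of one interval can differ in forkhead words. They are examples and do not stand for the shares over all intervals. Each window has 101 bp centred on the summit, on the plus strand of dm6, from the release 6 assembly. Capitals mark the forkhead word TRTTTRY (R stands for A or G and Y for C or T) or its reverse complement, with overlapping matches run together.
fkh strongest, chr3R:28585428-28585528: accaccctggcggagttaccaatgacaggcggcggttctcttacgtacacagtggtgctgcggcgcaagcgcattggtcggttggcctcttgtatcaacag
fkh next, chr3R:28587015-28587115: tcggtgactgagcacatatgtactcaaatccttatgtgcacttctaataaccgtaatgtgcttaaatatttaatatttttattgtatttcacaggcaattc
lncRNA:CR31840 strongest, chr2L:14024066-14024166: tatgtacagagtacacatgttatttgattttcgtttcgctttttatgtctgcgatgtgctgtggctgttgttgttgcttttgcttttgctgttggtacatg
lncRNA:CR31840 next, chr2L:14024265-14024365: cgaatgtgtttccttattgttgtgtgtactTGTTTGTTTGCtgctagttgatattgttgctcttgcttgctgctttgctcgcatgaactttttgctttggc
fray strongest, chr3R:18584093-18584193: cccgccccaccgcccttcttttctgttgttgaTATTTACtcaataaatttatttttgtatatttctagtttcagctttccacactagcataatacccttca
fray next, chr3R:18584294-18584394: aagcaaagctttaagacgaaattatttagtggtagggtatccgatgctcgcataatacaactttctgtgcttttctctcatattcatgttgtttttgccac
jp strongest, chr2L:9567474-9567574: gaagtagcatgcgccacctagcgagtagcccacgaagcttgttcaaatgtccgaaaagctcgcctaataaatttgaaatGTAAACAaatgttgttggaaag
jp next, chr2L:9567684-9567784: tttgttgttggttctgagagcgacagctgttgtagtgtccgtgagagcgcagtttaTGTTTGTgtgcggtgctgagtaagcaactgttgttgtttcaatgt

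At lncRNA:CR31840 the strongest summit held no word and the next held 2. At jp, which encodes a junctophilin, each window held 1 word. At fray, which encodes a kinase of the Ste20 family, the single word lay at the strongest summit. Neither fkh window held one. A missing match says only that these letters are not in the window.

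Multi-summit intervals were mostly wide and strong. Their width, with a median of 727 bp (285 to 3501 bp), stood against a median of 368 bp (115 to 1958 bp) for intervals with 1 summit. The authors' signal score at the strongest summit had a median of 672.74 (201.78 to 6080.8) in multi-summit intervals and 278.91 (160 to 3754.3) in single-summit intervals. Of the multi-summit intervals, 706 (95.5%) lay at or above the median score of the list, 294.1, against 46% of the single-summit intervals. The share of multi-summit intervals climbed with strength, from 0 in the weakest of 5 equal classes to 0.917%, 3.26%, 9.8% and 28.4% in the strongest. The choice of members used these values, so they are a description with no test.

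**Figure D1:**
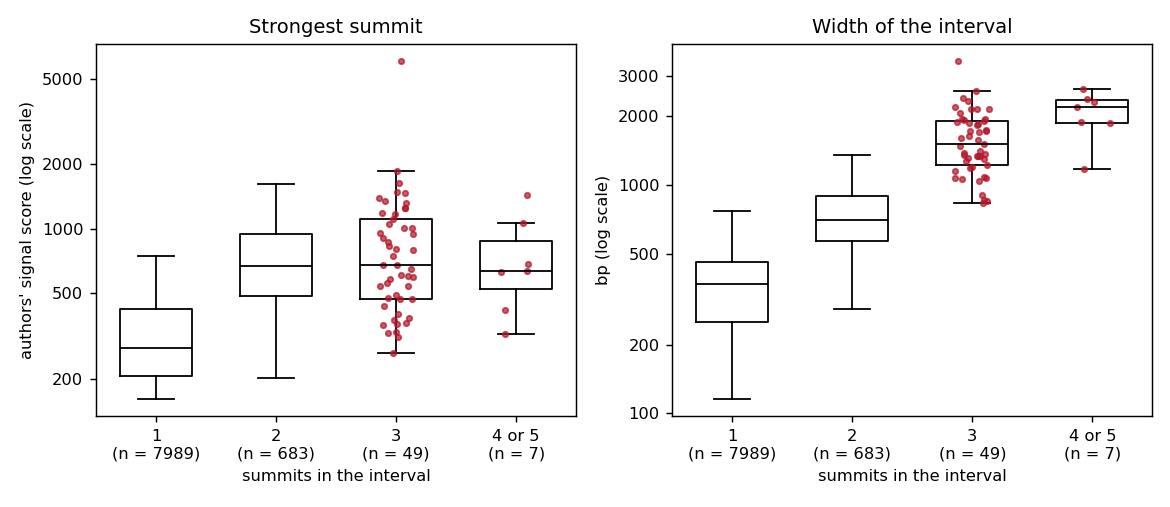
Signal score of the strongest summit (left) and width in bp (right), both on log axes, by the number of summits in the interval. Boxes give the median and quartiles, whiskers the range within 1.5 box lengths, and points the single intervals where there are fewer than 100. Width goes on climbing with the number of summits, with medians of 1519 bp for 3 summits and 2040 bp for 4, while the strongest score does not, with medians of 670.72 for 2 summits and 681.41 for 3.

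Values on either side of the rule were close. The weakest second summits inside it scored 160.1, 160.1 and 160.2, in intervals whose strongest summits scored 705.8, 1316.5 and 672.7. The intervals just outside had a further summit in the pooled list at 160, 159.9 and 159.8. The optimal list, with a lowest score of 160 at this rounding, did not hold these summits. In all, 435 single-summit intervals (5.44%) had such a further summit, and so did 64 multi-summit intervals beyond those counted. The most common width of single-summit intervals was 460 bp, found in 1 multi-summit interval and 1610 single-summit intervals (20.2%).

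Most neighbouring summits lay at nearly one distance. The 803 pairs of neighbouring summits were 199 to 1587 bp apart, with a median of 204 bp. Of these pairs, 536 (66.7%) were at most 210 bp apart and 73 (9.09%) were 500 bp or more apart. The lists called on each replicate alone had the same smallest distance of 199 bp, with a median of 203 bp in replicate 1 and slightly less in the other two. The settings of the peak caller are not known, so a minimum set in peak calling and the spacing of bound sites cannot be told apart, and a next summit is not shown to be a separate site. The next strongest summit had a median of 47.2% of the strongest summit's score (10.4% to 99.5%). In 403 of 739 intervals it was below 50%, and in 39 it was at least 90%. Pairs up to 200 bp apart had a median ratio of 46% (n = 185), and those 500 bp or more apart had 61.7% (n = 68). Between these the ratio was 45.5% over 200 to 210 bp (n = 331) and 51.6% over 210 to 250 bp (n = 116). It was highest, at 76.6%, over 250 and under 500 bp (n = 39).

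**Figure D2:**
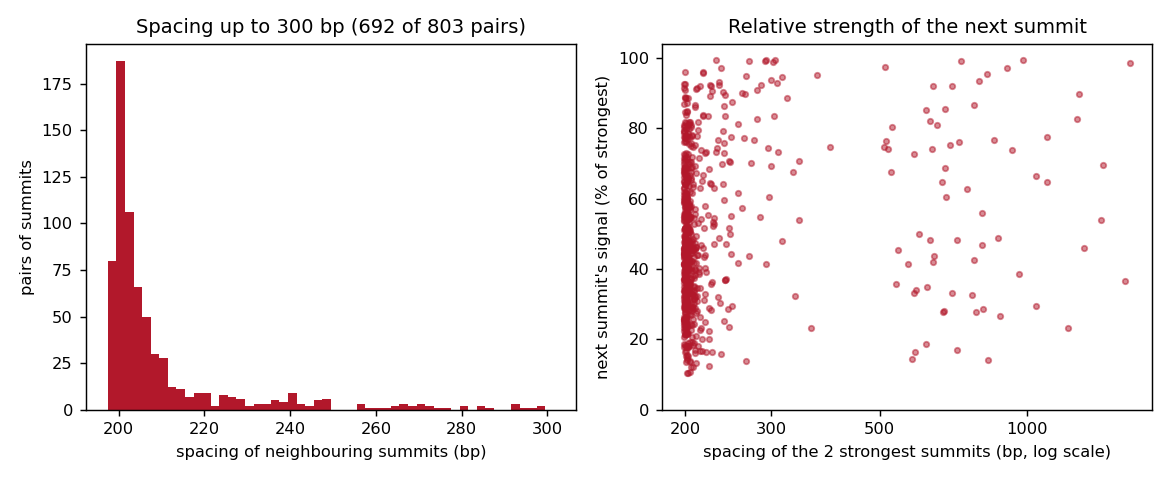
Spacing of neighbouring summits up to 300 bp (left, pairs per 2 bp) and the next summit's score as a percentage of the strongest, against the spacing of these summits on a log axis (right, 1 point per multi-summit interval). Most pairs pile up just above the smallest distance of 199 bp, and a thin tail reaches 1626 bp.

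The forkhead word was more frequent at the strongest summit of multi-summit intervals, but the difference was not detected among intervals of like strength. It lay within 50 bp of the strongest summit in 494 of 739 multi-summit intervals (66.8%, interval 63.3 to 70.2) and 4699 of 7989 single-summit intervals (58.8%, interval 57.7 to 59.9). It was found in 59.5% of all intervals. The odds ratio was 1.41 (interval 1.2 to 1.66, two-sided Fisher's exact p = 1.91e-05, adjusted over 3 comparisons 5.73e-05). When intervals were compared within 5 classes of strength, the odds ratio was 0.956 (stratified Cochran-Mantel-Haenszel test, n = 739 multi-summit intervals, p = 0.61). Within classes of width it was 1.17 (same test, n = 739, p = 0.0978). In the strongest class the word was at 69.1% of multi-summit intervals and 71.3% of single-summit intervals. In the next class the shares were 64.9% and 63.2%. These p-values are over intervals of 1 list, of which neighbours share sequence and genes, and not over animals.

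No difference at promoters was detected over all intervals. Among intervals of like strength fewer multi-summit intervals lay there, and among intervals of like width this was not detected. The strongest summit lay within 500 bp of a transcription start site (TSS) in 334 multi-summit intervals (45.2%) and 3544 single-summit intervals (44.4%), with an odds ratio of 1.03 (interval 0.886 to 1.21, two-sided Fisher's exact p = 0.671, adjusted 0.914). Within classes of strength the odds ratio was 0.748 (same stratified test, n = 739, p = 0.00055). Within classes of width it went the other way, at 1.17 (same test, n = 739, p = 0.0872). Without strength classes, among intervals ranked with the strongest summits of both remaining replicates, the odds ratio was 0.887 to 0.97 (two-sided Fisher's exact p from 0.136 to 0.725). In the class of scores from 256.2 to 347.1, 21.1% of multi-summit intervals and 44.9% of single-summit intervals were at promoters. In the strongest class the shares were 50.5% and 53.2%. Divergent promoters of coding genes, with start sites on both strands within 1000 bp, held 111 multi-summit intervals (15%) and 1190 single-summit intervals (14.9%), an odds ratio of 1.01 (interval 0.81 to 1.25, two-sided Fisher's exact p = 0.914, adjusted 0.914) and 0.643 within classes of strength (stratified p = 0.000146).

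**Figure D3:**
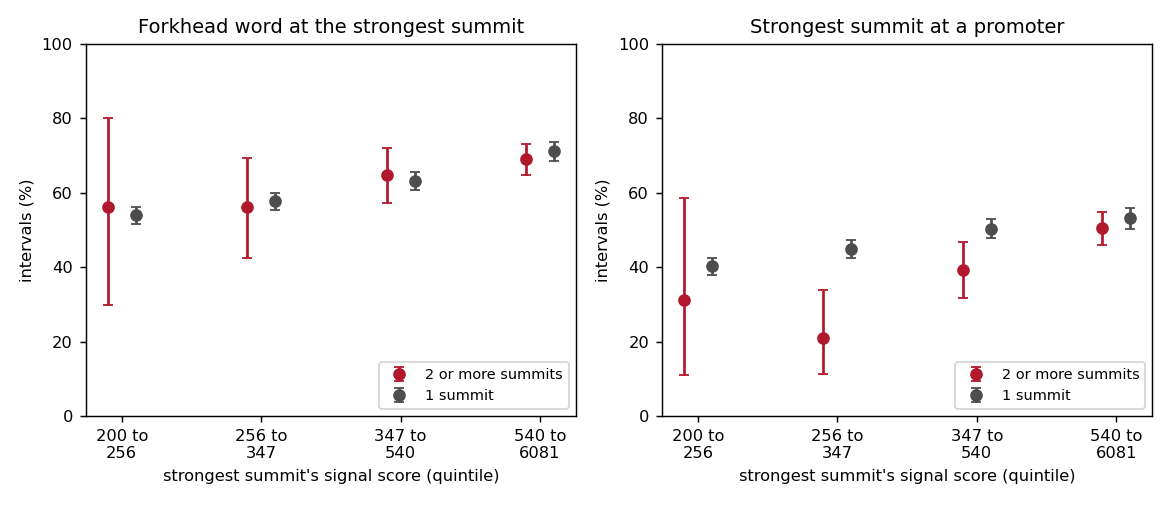
Share of intervals with a forkhead word at the strongest summit (left) and with that summit at a promoter (right), in the 4 strength classes that hold multi-summit intervals; points are shares and bars exact 95% intervals. The 95% intervals for the word overlap in every class. Multi-summit intervals have the lower promoter share in every class, most clearly at 21.1% against 44.9%. In the weakest and the strongest class shown, the 95% intervals for promoters overlap as well.

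Of 13 sequence words searched on both strands, 4 passed an adjusted p of 0.05 at the strongest summit, and none did within classes of strength. Besides the forkhead word and its narrower form TGTTTAY, at 26.4% of multi-summit and 20.6% of single-summit intervals, these were GAGAG and CACACACA. GAGAG, the core that GAGA factor binds, was at 20.6% of multi-summit and 16.2% of single-summit intervals (Fisher's exact adjusted p = 0.0115; within strength, odds ratio 1.3, adjusted p = 0.0774). CACACACA was at 7.98% of multi-summit and 5.38% of single-summit intervals (Fisher's exact adjusted p = 0.0181; within strength, odds ratio 1.5, adjusted p = 0.0774). The E-box CANNTG was at 44.7% of multi-summit and 43.4% of single-summit intervals, and TAATTA, a homeodomain core, at 5.28% and 5.77%. The others searched were TATCGATA (the DRE), WGATAR (GATA factors, W for A or T), AGGTCA (nuclear receptor half-site), TGASTCA (AP-1, S for C or G), CAGGTA (Zelda), TGACGTCA or TGACGCA (CRE) and AAAAAAAA, with adjusted Fisher's exact p between 0.307 and 0.453. The narrow forkhead word lies within the wider one, so the calls on these words are not separate. Base composition was close, with a median GC content of 41.1% in multi-summit and 41.3% in single-summit intervals.

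Within multi-summit intervals the strongest summit held the forkhead word more often than the next one. It was at the strongest summit in 66.8% and at the next strongest in 48.2% (356 of 739, interval 44.5 to 51.8). The word was at both summits in 241 intervals, at the strongest alone in 253, at the next alone in 115 and at neither in 130 (two-sided exact McNemar p = 4.94e-13, adjusted over 3 comparisons 1.48e-12). For the 68 pairs 500 bp or more apart the shares were 61.8% at the strongest and 60.3% at the next summit (exact McNemar p = 1). The next summit was in turn richer than the midpoint between it and its nearest neighbouring summit, with a word in 211 of 418 next windows (50.5%) and 159 midpoint windows (38%; two-sided exact McNemar p = 0.00025, adjusted 0.000375). Left out were 321 intervals whose windows would overlap. No difference in promoter position was detected between the summits of a pair, at 334 strongest and 329 next summits (two-sided exact McNemar p = 0.64).

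The next summits also had fewer words than single summits of like strength, a comparison chosen after the values were seen. The shares were 48.2% of next summits and 58.8% of single summits (odds ratio 0.651, interval 0.558 to 0.759, two-sided Fisher's exact p = 2.93e-08), although their median scores were 286.3 and 278.9. Within 5 classes of the summit's own score the odds ratio was 0.649 (stratified test, n = 739 next summits, p = 1.76e-08), and next summits were lower in each class. The share differed with distance from the strongest summit. It was 46.5% up to 200 bp, 46.8% over 200 to 210 bp, 50% over 210 to 250 bp and 41% over 250 and under 500 bp. At 500 bp or more it was 60.3% (n = 68, interval 47.7 to 72), close to single summits. Whether a stronger summit nearby affects the score was not tested.

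**Figure D4:**
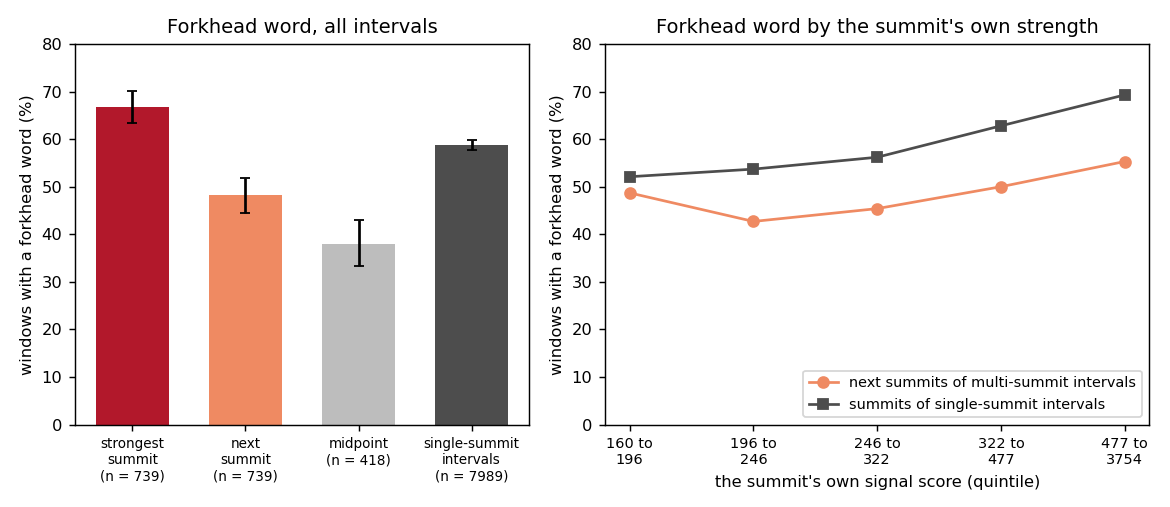
Share of 101 bp windows with a forkhead word (left) at the strongest summit, the next summit and the midpoint of multi-summit intervals and at single-summit intervals, with exact 95% intervals, and (right) by the summit's own score. Shares are 66.8%, 48.2%, 38% and 58.8%, and next summits run below single summits in all 5 classes, at 55.3% against 69.3% in the strongest.

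Nearly all multi-summit intervals ranked high in every replicate. Each replicate's summits were ranked by score, with 1 the strongest, and an interval took the best rank among the regions overlapping it. The median rank of multi-summit intervals was 1166, 1246 and 1411 in replicates 1, 2 and 3, against 4921, 4979 and 5189 for single-summit intervals. These medians leave out 55, 83 and 36 single-summit intervals that no region of the replicate overlapped. In all 3 replicates 734 of 739 (99.3%) ranked among the 9531 strongest summits, against 67.8% of single-summit intervals. The 5 exceptions, picked out after their values were seen, each fell short in 1 replicate. The interval at tay ranked 1135, 22101 and 1656 in replicates 1, 2 and 3, and that at MYPT-75D 6200, 10229 and 6323. The remaining ones, with no coding gene within 1000 bp, had lowest ranks of 27243 and 9972 in replicate 3 and 10400 in replicate 2. The optimal list was built from these replicates, so the ranks are a description. At least 2 summits of each replicate's list fell within the interval in 688, 671 and 648 cases (93.1%, 90.8% and 87.7%). The shares of single-summit intervals, which were mostly narrower, were 20.6%, 18.3% and 17.3%. Such summits did not have to share an interval in the replicate's list. Among each replicate's 9531 strongest summits alone, the cases were 593, 542 and 480 (80.2%, 73.3% and 65%), a share not taken for single-summit intervals. Exact places, asked of both summits in all 3 replicates at once, held in fewer intervals. Both of the strongest summits had a partner within 50 bp in all 3 replicates in 352 intervals (47.6%), in 2 replicates in 248, in 1 in 120 and in none in 19. Taken singly in replicates 1, 2 and 3, strongest summits had a partner in 88.4%, 82% and 82.7%. The next summits had one in 85.8%, 78.5% and 78.6%. For single-summit intervals the shares were close to these, at 88.1%, 82% and 79.7%.

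The interval at fkh was the widest, at 3501 bp (chr3R:28584588-28588088), and the strongest, ranking 1 in each replicate. Its summits scored 6080.8, 2232.9 and 1583. The first lay 214 bp upstream of the fkh start site and the others 1801 and 2003 bp upstream, in an exon of lncRNA:CR43126. The third held the forkhead word. Around the gene, within 20 kb, 5 of 17 intervals were multi-summit and carried 15 summits. One, with 4 summits scoring 1434.4, 1289.9, 883.7 and 711.4, was intergenic and 14018 to 15508 bp downstream of the start, and its 3 strongest summits held the word.

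**Figure D5:**
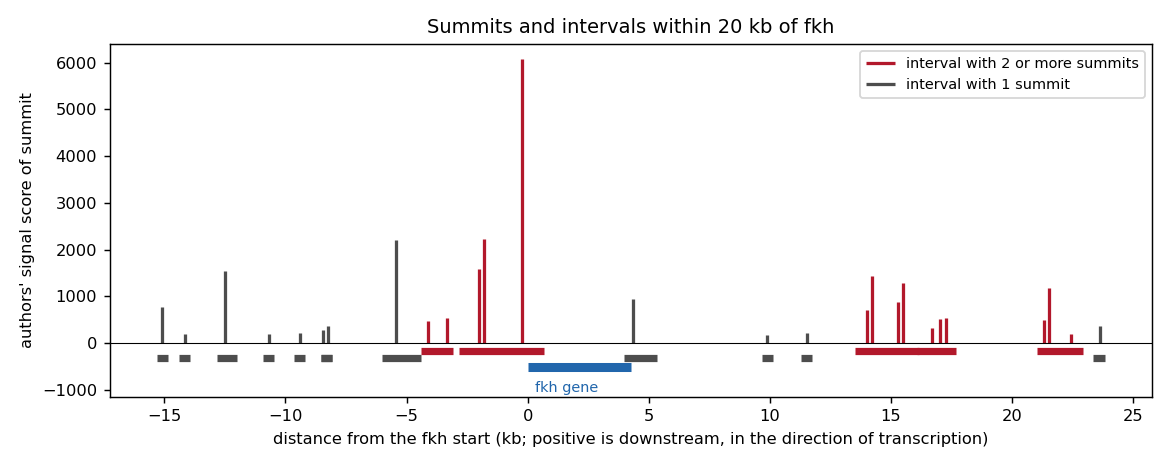
Summits around fkh by distance from its start site in kb, with the direction of transcription to the right; line height is the authors' signal score, and bars below zero mark the intervals and the gene. Multi-summit intervals form 2 groups, one around the start with the 6080.8 summit and one more than 10 kb downstream.

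The other intervals with most summits lay mainly at promoters. The one with 5 summits, at Drat, scored 1061.7, 571.6, 447, 407.1 and 321.9, and 4 of these were within 500 bp of a start site. Its best rank was 292, 514 and 558 in replicates 1, 2 and 3. Intervals with 4 were those at spi, which encodes a ligand of the EGF receptor (686.5 to 161.1), at Pdp1, a bZIP activator of the circadian clock (416.9 to 237.3), at arm, the fly beta-catenin (324.5 to 173.4), across CG9992 and CG4239 (626.2 to 316.2), and at lncRNA:CR44276 (635.5 to 340.7). At the last, the 3 strongest summits were nearly equal, at 635.5, 632.2 and 626. At ph-p, a Polycomb group gene, 3 summits scored 1638.3, 541.8 and 267.5, and inside KCNQ, a potassium channel gene, 1863.1, 604.4 and 277.7, the last of them 459 bp from the start of mlt. Among the strongest, lncRNA:CR31840 scored 3929.2 and 2011, fray 2681.2 and 1644.7, and jp 2665.6 and 426.6. Introns of ush, a cofactor of GATA factors (1950.6 and 211.5), and fra, a netrin receptor (1903.5 and 568.6), were also among the strongest, with the promoters at CG7523 and Mps1 (1984 and 241.1), of RhoGEF3 (1976.8 and 490.5) and of fok (1891.4 and 557). The wide intervals in introns of Tlk, px and CG10543 had strongest scores of 1251.7, 884.7 and 1349.5.

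By annotation, 334 strongest summits of multi-summit intervals were at promoters, 308 (41.7%) in introns and 74 (10%) between genes, against 39.8% in introns and 11.8% between genes for single-summit intervals. In 3′ UTRs were 2 (0.271%) and 132 (1.65%). The share of intervals that were multi-summit ran from 7.84% on X to 8.79% on 3R among the large arms. Of the 739, 233 (31.5%) lay within 10 kb of another. The matching share for single-summit intervals was not taken, so this is a count only. A coding start site fell between the strongest and next summit in 111. Where 1 of the pair lay within 500 bp of a coding start, in 337 intervals, both were upstream in 142, both downstream in 90 and one on each side in 105.

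Multi-summit intervals had a summit within 1000 bp of the start of 514 of 13945 coding genes (3.69%), and single-summit intervals of 4024 (28.9%), with 193 genes near both kinds. Of the 4345 genes near any interval, 11.8% were near a multi-summit one. No coding gene was that near in 340 multi-summit intervals (46%). The gene lists below are counts to be read against these shares, without a test.

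Hormone and growth genes were among the near ones. Of 27 ecdysone response genes 5 (18.5%) were near a multi-summit interval. They were Kr-h1, a zinc finger gene of the juvenile hormone response (strongest score 911.3), tai, a coactivator of the ecdysone receptor (786.4), gce, a juvenile hormone receptor (572.5), and the nuclear receptor genes Eip75B (465.4) and Hr39 (400.4). At Eip75B the summits were almost level, at 465.4 and 461.6. The Kr-h1 interval ranked 683, 740 and 320 in replicates 1, 2 and 3, and that of Eip75B 2447, 1120 and 1531. Of the ecdysone response genes near any interval, 26.3% were near a multi-summit one. Of 20 insulin and TOR genes 5 (25%) were near one. InR, the insulin receptor, had summits of 1267.5 and 207.4, each with a forkhead word, and ranked 149, 314 and 458 in replicates 1, 2 and 3. Pdk1, a kinase downstream of it, had 844.2 and 650.5, again with a word at both. REPTOR, a transcription factor held back by TOR complex signalling, had 803.3 and 196.8, with no word at either summit. Sesn, which encodes sestrin, had a summit of 322.8 near its start. Of the insulin and TOR genes near any interval, 38.5% were near a multi-summit one.

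Other forkhead genes near a multi-summit interval were 2 of 16, and both were strong. jumu scored 1846.9 and 839.8, both in an intron, and ranked 40, 65 and 49 in replicates 1, 2 and 3. FoxK scored 1359.3 and 1030.4 and ranked 153, 334 and 82. All 4 of these summits held the forkhead word. In the signalling list 4 of 26 (15.4%) were near one, namely shn, a zinc finger gene of the Dpp pathway (1426.3), spi (686.5), Egfr (576) and the kinase gene Raf (367.7). The shn interval ranked 77, 487 and 146 in replicates 1, 2 and 3, and that of Raf, the weakest of these, 3515, 3387 and 5903. In the autophagy and cell death list 3 of 32 (9.38%) were near one, the caspase inhibitor gene Diap1 (927.4), the death gene hid (590.1) and Atg17 (476.8). Of the 6 forkhead, 18 signalling and 18 autophagy and cell death genes near any interval, 33.3%, 22.2% and 16.7% were near a multi-summit one.

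Of the organs in which fkh is best known, single genes were near a multi-summit interval, and the shares stand beside 3.69% of all coding genes. Of 13 salivary gland regulators 1 (7.69%), fkh itself, was near a multi-summit interval, and of 18 gut regulators 1 (5.56%), bowl, a zinc finger gene, at 402.4. Single-summit intervals were near 8 and 11 of these. Of the 9 and 11 near any interval, 11.1% and 9.09% were near a multi-summit one, against 11.8% over all genes. Of 23 secretory genes 3 (13%) were near one, alphaCOP of the coat of Golgi vesicles (927.5), Sec23 of the coat of vesicles leaving the endoplasmic reticulum (763.3) and Sec61alpha of the translocon (261.1, with 1148.4 farther into the gene). Of 93 cytosolic ribosomal protein genes 2 (2.15%) were near a multi-summit interval, RpS25 (904.2) and RpL32 (554.6), and 56 near a single-summit one. That is 3.45% of the ribosomal genes near any interval, and for the secretory genes the same share was 23.1%. None of 10 Hox genes and cofactors, 18 heat shock genes or 179 chemoreceptor genes was near a multi-summit interval, while 4, 9 and 8 were near a single-summit one.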

How the data were processed

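Peaks were listed by the authors in the narrowPeak layout, and reads were not used here. Of the 10 deposited lists 6 were used: the optimal list on dm6 and on dm3, the pooled dm6 list and the 3 replicate dm6 lists. Each deposited summit carries the authors' score, called the signal, in units left unstated, and a −log10 q-value, which the authors' list gives as 4.289 throughout the optimal list. Other deposited values are summit offsets in bp. For the aligner, the peak caller and the IDR threshold, names and settings were not given in the sources used here. Scores of separate lists are not on 1 scale, so replicates were compared by rank.

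Rows with the same interval were joined, words were searched in the release 6 sequence, and start sites came from Ensembl release 115. Python 3.11.15, scipy 1.17.1 and statsmodels 0.14.6 were used for Fisher's exact, exact McNemar and Cochran-Mantel-Haenszel tests, with Benjamini-Hochberg adjustment within each family. The steps were tested on simulated data. The members, the 12 gene lists and the words were chosen with earlier results of these data known. Outdated symbols were matched to current ones, so Tor is mTor and Dl is Delta. Intervals named were that of fkh, the 10 with most summits, the 10 strongest, the 5 widest, and up to 4 genes of each list. Hr39 and Sesn fall outside this rule and were named after their values were seen. Some items that the rule names are not reported here.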

Additional observations from a re-analysis of the deposited data

How the results depend on the processing

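Of 67 alternatives, 45 kept direction and side of the threshold; the cause of the other shifts was not tested. The number of multi-summit intervals was 355 with summits at or above the median score, 77 when summits within 500 bp of a stronger one were not counted, and 1176 in the pooled list. The odds ratio of the forkhead word was 1.11 among intervals at or above the median score (Fisher's exact p = 0.227), 1.17 stratified by width and 0.956 stratified by strength, and 1.32 to 1.39 without one replicate. For promoters it was 0.887 to 0.97 without one replicate, 0.863 among those at or above it, 0.748 stratified by strength, 1.17 stratified by width and 0.891 within 250 bp. For divergent promoters it was 0.842 to 0.94 without one replicate, 0.791 among those at or above it (Fisher's exact p = 0.0346), 0.643 stratified by strength and 0.982 within 2000 bp. The ratio of pairs with a word at the strongest summit alone to the next alone was 1.07 for pairs 500 bp or more apart (exact p = 1). For next summits against midpoints it was 2 with a window of 100 bp to each side (47 pairs, exact p = 0.302) and 1.69 to 1.72 without one replicate. For promoters it was 0.579 with a window of 1000 bp (exact p = 0.2). The 4 words past the threshold became 0 stratified by strength. The alternatives that dropped single-summit intervals of the most common width, or overlapping others, were chosen after seeing the data. Leaving out a replicate only kept intervals found among the strongest regions of both others. Summits and scores still came from the list built on all 3 replicates. It kept 734 to 737 of the 739 multi-summit intervals, and 414 to 417 of the 418 midpoint pairs. Comparisons within intervals could therefore hardly change, and their unchanged results, counted among the 45, say nothing on dependence on a replicate. Samples could not be paired because there is 1 group of them, so pairing was only of summits or windows within an interval. Precision is limited by unknown depth and 3 replicates.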
